A study of Homo sapiens with 17 samples.

Results

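The genes described here are the ZNF zinc finger genes of chromosome 19 with measurable messenger RNA in untreated bronchial cells. A gene was a member when its symbol was ZNF followed by digits, its deposited map position began with 19p or 19q, and its estimated read count averaged at least 10 over the controls. Of 16884 genes in the table, 237 were ZNF genes of chromosome 19, and 196 of these were members, while 41 lay under the count threshold. Members were thus chosen by their measured control counts, and control levels are given below without a test.

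The cells were BEAS-2B, an immortalised human bronchial epithelial line of wild-type genotype grown in BEGM, a bronchial epithelial medium. Control cells received BEGM without acetaldehyde (0 mM, 6 libraries), and the other groups received 10 mM (6 libraries) or 16 mM (5 libraries) acetaldehyde, a reactive aldehyde made from ethanol and present in tobacco smoke. All groups were harvested after 24 h, and RNA with a poly-A tail was sequenced. Nothing in the labels says that the libraries are separate cultures. Each p-value therefore reflects library spread, which may be technical.

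Zinc finger genes of the ZNF kind encode proteins with rows of C2H2 fingers, small folds held by a zinc ion that read DNA letters. Many carry a KRAB domain, which binds the corepressor TRIM28, and TRIM28 brings in the histone methyltransferase SETDB1 and heterochromatin proteins of the CBX family. The best known targets are transposable elements. On chromosome 19 these genes lie in clusters of near copies that arose by tandem duplication, and the clusters are themselves known sites of TRIM28 and of histone H3 lysine methylation.

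Library totals lay between 15952673 and 18809242 estimated counts. Library 1 of the 10 mM group stood apart from the other libraries: its normalization factor was 0.559, and the next lowest was 0.967. Member counts made up 0.148% of its total, whereas they made up 0.317% to 0.373% in the other 10 mM libraries. Results are therefore given with and without it. The remaining 16 libraries also fell into sets on the first principal component of the group-centred values, which held 43.3% of their variance. Set A holds control libraries 1 to 3, 10 mM libraries 2 to 4 and 16 mM libraries 1 to 3, and set B holds the rest. Control library 1 was not clearly of set A. It scored 3.2 on the first principal component, and the next lowest score in set A was 13.4. Its correlations were -0.134, -0.083 and -0.088 with 10 mM libraries 2 to 4, and -0.093 and -0.073 with 10 mM libraries 5 and 6. With the 16 mM libraries they lay between -0.040 and 0.041. Results within set A include control library 1. The labels name no batch, and the sets were defined after the data were seen. Among 9 airway epithelial markers, KRT7, KRT8, KRT17 and KRT18 reached 1 FPKM in each group (FPKM counts fragments per kilobase of transcript, scaled to library depth), while EPCAM, CDH1, KRT5, KRT19 and TP63 averaged under 0.1 FPKM. FPKM does not carry the normalization factors used in the fits. Values of 10 mM library 1 (factor 0.559) therefore read lower in FPKM, relative to other libraries, than on the scale of the fits. The endothelial, ciliated and secretory lists summed to at most 0.67, 0.11 and 0.01 FPKM in any library. The 4 leukocyte markers in the table summed to 0.49 to 0.91 FPKM in control, 0.95 to 1.58 FPKM at 10 mM and 0.64 to 1.63 FPKM at 16 mM. PTPRC and CD3E were under 0.1 FPKM in each group. At 16 mM 1 leukocyte marker reached 1 FPKM, and 0 did in control and at 10 mM. Of the 7 fibroblast markers in the table, 3 were at 1 FPKM or more in each group. They summed to 29.9 to 49.2 FPKM in control, 24.7 to 34.1 FPKM at 10 mM and 20.3 to 25.6 FPKM at 16 mM, over all 7. COL1A2 and COL3A1 were under 0.1 FPKM in each group, and DCN was so at 16 mM. The part of these lists in the results was not tested.

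In control cells the members were weakly expressed. Their median was 4.17 FPKM, against 14.4 FPKM over all 12564 genes tested, and 19 members averaged under 1 FPKM. All 196 members passed the filter on low counts. The highest level was that of ZNF146, whose protein consists of zinc fingers alone, at 51.6 ± 5.7 FPKM (SD, n = 6). ZNF428 followed at 41.5 ± 4.98 FPKM and ZNF358 at 28.5 ± 1.15 FPKM. ZNF581 at 23.3 ± 3.5 FPKM, ZNF580 at 22.5 ± 3.63 FPKM and ZNF544 at 22.4 ± 2.77 FPKM did not differ beyond their spread. None of the first 5 of these genes carries an annotated KRAB domain, and ZNF544 was the highest of those that do. A KRAB domain was annotated for 164 members, with a median of 3.84 FPKM, and the 32 members without one had a median of 7.34 FPKM. Just inside the threshold stood ZNF471 with a mean control count of 12, ZNF665 with 12.3 and ZNF829 with 12.7. Just outside stood ZNF793 with 7.03, ZNF506 with 6.17 and the readthrough ZNF816-ZNF321P with 3.67. Of the 41 genes outside, 1 averaged at least 10 counts at 16 mM. It was ZNF844, singled out after its values were seen, with 1.79 in control and 12.6 at 16 mM.

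At 16 mM more members rose than fell. In the fit of all 17 libraries (edgeR quasi-likelihood test, adjusted p under 0.05 over all genes), 67 of 196 members rose and 12 fell, and 117 were not called. Over all 12564 genes tested, 17.3% were called higher and 18.1% lower, while the members' shares were 34.2% and 6.12%. Their median log2 change was 0.30, with quartiles of 0.02 and 0.57, and the median over all genes was 0.00. The change was positive for 150 members, or 76.5%, against 50.1% of all genes. All values are relative to the other messenger RNAs of a library. A rise of the members therefore cannot be told from a loss of other messenger RNAs. Nor do the values tell fewer cells from less RNA per cell.

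Without 10 mM library 1 the spread between libraries was smaller and more genes were called everywhere. Then 115 members rose and 16 fell, where 33.7% of 12545 genes were called higher and 32.2% lower. The members' median stayed at 0.30. Within library set A, 100 members rose and 24 fell, with 35.5% of genes called higher and 36.4% lower. Within library set B, 113 rose and 23 fell, with 38.6% called higher and 39.5% lower. The median log2 change was 0.22 in set A and 0.34 in set B, and 130 members lay above control in both, or 66.3%, against 39.5% of all genes tested in both sets. The authors' deposited table gave q-values under 0.05 to 108 members with higher and 16 with lower values at 16 mM, where 25.0% and 25.4% of its 16499 genes with a q-value were called.

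The shift was present in each library of the group. Members held 0.409% to 0.439% of all counts at 16 mM and 0.317% to 0.393% in control, with no overlap. Control libraries 1 to 3 held 0.358%, 0.393% and 0.388%, and control libraries 4 to 6 held 0.317%, 0.321% and 0.332%. The median member stood 0.30, 0.27, 0.31, 0.33 and 0.27 above its control mean on the log2 scale in 16 mM libraries 1 to 5. In 10 mM library 1 it stood at -0.63, and in the other 10 mM libraries between -0.06 and 0.06. For 90 members every 16 mM library lay above every control, and for 12 members every one lay below. Over all genes tested these shares were 24.8% above and 24.2% below.

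**Figure D1:**
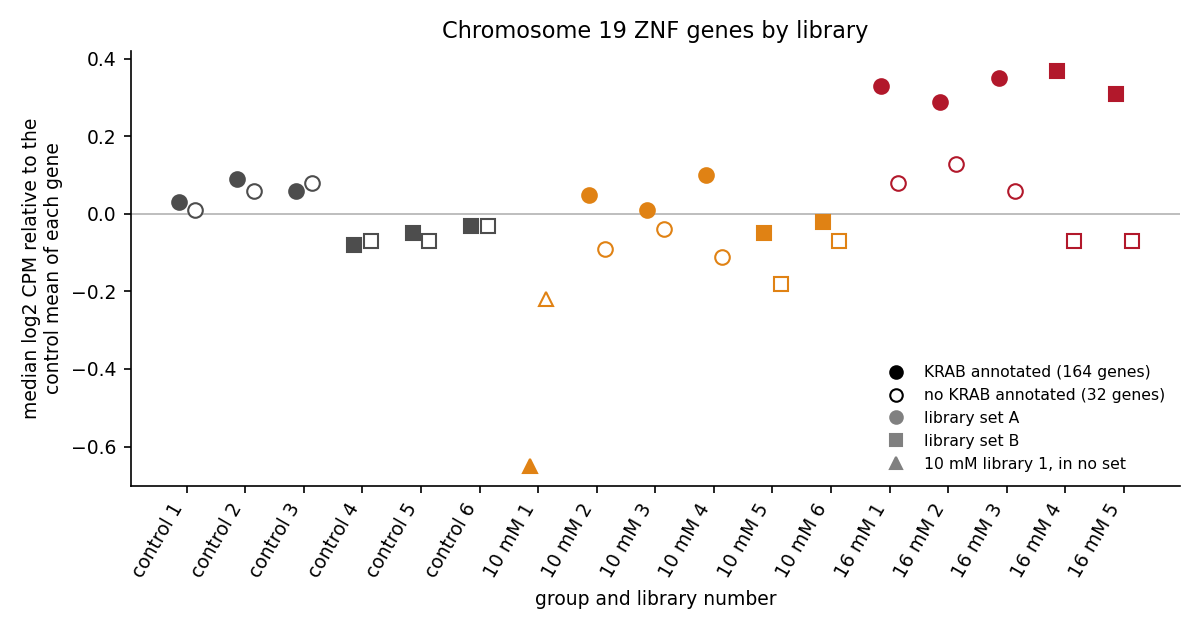
Median log2 CPM of the members relative to each gene's control mean (y axis) in each of the 17 libraries (x axis), with filled symbols for the 164 members with a KRAB domain and open symbols for the 32 without. Circles are library set A, squares set B and the triangle 10 mM library 1. The filled symbols lie between 0.29 and 0.37 in all 5 libraries at 16 mM and at -0.65 in 10 mM library 1.

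Members were also split by whether a KRAB domain is annotated. With a KRAB domain, 61 of 164 rose and 5 fell (37.2% and 3.05%), with a median log2 change of 0.33. Without one, 6 of 32 rose and 7 fell (18.8% and 21.9%), with a median of -0.01. Of all genes, 17.3% rose and 18.1% fell, near the shares of members without a KRAB domain. Without 10 mM library 1, 102 rose and 9 fell with a KRAB domain, and 13 rose and 7 fell without one. These shares were 62.2% and 5.49% against 40.6% and 21.9%, where 33.7% and 32.2% of all genes were called. Within set A the counts were 92 and 15 against 8 and 9, or 56.1% and 9.15% against 25.0% and 28.1% (all genes 35.5% and 36.4%). Within set B they were 101 and 9 against 12 and 14, or 61.6% and 5.49% against 37.5% and 43.8% (all genes 38.6% and 39.5%). The medians were 0.34 and 0.00 without 10 mM library 1, 0.25 and 0.02 within set A, and 0.40 and -0.03 within set B. With DESeq2 size factors in place of TMM they were 0.32 and -0.02. Gene length differed between these classes as well. Among the 143 members whose deposited coordinates lay within 10000 bases of GENCODE release 29, the median span was 22.4 kb with a KRAB domain and 11.6 kb without. Of 11 members under 10 kb without KRAB, 2 rose and 5 fell. Of 16 members of at least 10 kb without KRAB, 4 rose and 1 fell, with a median of 0.15, and 8 rose and 1 fell without 10 mM library 1. Of 11 members under 10 kb with KRAB, 4 rose and 1 fell, and of 105 of at least 10 kb with KRAB, 36 rose and 2 fell. The part of length was not tested, and neither was the difference between the classes.

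ZNF genes elsewhere in the genome also had a positive median. Of 222 ZNF genes of other chromosomes, all tested, 71 rose and 26 fell at 16 mM, with a median log2 change of 0.17. These shares, 32.0% and 11.7%, compare with 34.2% and 6.12% of members and 17.3% and 18.1% of all genes. Those with a KRAB domain (108) had a median of 0.21, and 42 rose and 8 fell (38.9% and 7.41%). The share that rose among KRAB members was close to it, at 37.2%, with 3.05% lower. Those without a KRAB domain (114) had a median of 0.09, and 29 rose and 18 fell (25.4% and 15.8%). Of 687 tested genes of chromosome 19 that were neither ZNF genes nor of the related ZFP, ZSCAN, ZKSCAN, ZIK and ZIM names, 118 rose and 102 fell (17.2% and 14.8%), with a median of -0.01. Within sets A and B the median was 0.08 and 0.23 for the ZNF genes of other chromosomes, and 0.00 and -0.04 for the other chromosome 19 genes. Members with a mean control count of at least 100 had a median of 0.31, and those under 100 a median of 0.18.

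**Figure D2:**
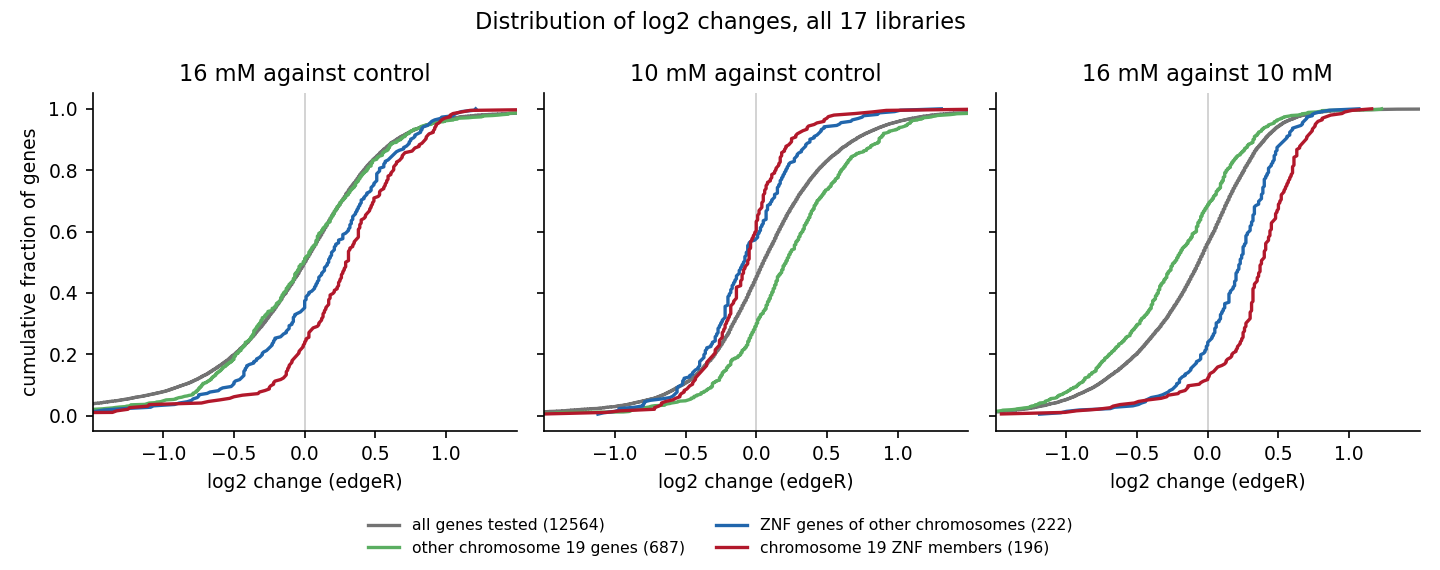
Cumulative fraction of genes (y axis) by log2 change from edgeR (x axis, cut at -1.5 and 1.5) for the 3 comparisons, in all genes tested and in 3 gene groups. At its quartiles and median the curve of the 196 members lies to the right of the others at 16 mM against control (median 0.30). The same holds at 16 mM against 10 mM (median 0.38), and not at 10 mM against control (median -0.06).

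ZNF296, a gene of 19q13.32 without an annotated KRAB domain (GRCh38, chr19:45071500-45076478), had the largest rise. Its control libraries ran from 1.53 to 2.89 FPKM with a median of 2.75, and the 16 mM libraries held 8.64, 11.1, 9.56, 10.3 and 9.85 FPKM. Every 16 mM library was above every control. The change was 4.09-fold (log2 2.03 ± 0.47 SE, edgeR adjusted p = 0.00287), and the log2 change was 1.76 in set A and 2.34 in set B.

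Several KRAB members rose by about 1 on the log2 scale. ZNF468 of 19q13.41 ran from 1.54 to 2.57 FPKM in control (median 1.90), and at 16 mM its libraries held 3.35, 3.70, 3.40, 5.01 and 4.04 FPKM. Its groups did not overlap, and the log2 change was 1.05 ± 0.14 (adjusted p = 2.92e-05), with 0.69 in set A and 1.46 in set B. ZNF845 ran from 3.62 to 4.13 FPKM in control (median 4.00) and held 6.69, 6.93, 6.98, 8.73 and 8.87 FPKM at 16 mM, a change of 0.99 ± 0.12 (edgeR adjusted p = 7.87e-06). The 16 mM libraries of set B were the highest for both genes. ZNF805 of 19q13.43 ran from 1.12 to 1.44 FPKM in control (median 1.15) and held 2.27, 2.34, 1.95, 3.02 and 2.67 FPKM at 16 mM, a change of 1.03 ± 0.15 (edgeR adjusted p = 7.65e-05). Its groups did not overlap either. ZNF850 (log2 change 1.17), ZNF525 (1.11) and ZNF460 (0.97), all with KRAB domains, also rose with no overlap. Counts of ZNF468, ZNF845, ZNF805 and ZNF850 were not whole in every library. Reads shared with similar genes were therefore divided by estimate, and their values are uncertain to that extent. This holds for 79 of the 196 members, although 81.6% of all member values were whole.

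Among members without a KRAB domain, 6 rose: ZNF296, ZNF574, ZNF121, ZNF526, ZNF625 and ZNF146. ZNF574 of 19q13.2 ran from 7.35 to 8.50 FPKM in control (median 8.01) and held 14.8, 16.0, 15.1, 17.7 and 16.9 FPKM at 16 mM. The log2 change was 1.03 ± 0.16 (edgeR adjusted p = 0.000108), and it was of like size in set A (1.02) and set B (1.10). ZNF121 of 19p13.2 ran from 6.21 to 9.01 FPKM (median 7.16) and held 13.4, 14.2, 15.5, 15.4 and 12.9 FPKM at 16 mM, a change of 0.95 ± 0.08 (edgeR adjusted p = 3.76e-07). ZNF146 rose from 51.6 ± 5.7 FPKM (n = 6) to 62.1 ± 2.83 FPKM (n = 5), or 0.29 ± 0.08 on the log2 scale (edgeR adjusted p = 0.0109). The ZNF146 change was small in set A (0.10) and larger in set B (0.51).

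Of the 12 members that fell, 7 had no annotated KRAB domain. ZNF358 of 19p13.2 (GRCh38, chr19:7515286-7521025) ran from 27.1 to 30.2 FPKM in control (median 28.3) and held 12.3, 13.6, 10.6, 11.0 and 11.7 FPKM at 16 mM. It fell to 0.419-fold (log2 change -1.25 ± 0.12, edgeR adjusted p = 7.82e-07), and the change was -1.24 in set A and -1.27 in set B. ZNF580 of 19q13.42 (GRCh38, chr19:55640985-55643470) ran from 18.5 to 26.4 FPKM in control (median 22.5). At 16 mM its libraries held 8.33, 11.8, 8.71, 7.95 and 6.60 FPKM, all below every control (log2 change -1.33 ± 0.22, edgeR adjusted p = 0.000196). ZNF414 of 19p13.2 ran from 8.65 to 13.3 FPKM in control (median 11.1) and held 5.54, 7.19, 7.02, 2.41 and 3.73 FPKM at 16 mM. It fell by 1.11 ± 0.20 on the log2 scale (edgeR adjusted p = 0.000417), and the libraries of set B were the lowest. ZNF837 (log2 change -1.36), ZNF524 (-1.10) and ZNF497 (-0.73) were the other called falls without KRAB that reached 1 FPKM.

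ZNF575, outside the naming rule for its low level and singled out after its values were seen, had the largest fall. It ran from 0.52 to 0.94 FPKM in control and held 0.09, 0.05, 0.24, 0.00 and 0.05 FPKM at 16 mM, from a mean control count of 15.3. The KRAB members that fell were ZNF233 (log2 change -1.24 ± 0.23), ZNF446 (-0.68 ± 0.14), ZNF846 (-0.60 ± 0.16), ZNF226 (-0.32 ± 0.11) and ZNF302 (-0.28 ± 0.10). The calls of ZNF226 and ZNF302 were each lost in 5 of the 17 fits that left out a library. Of these, ZNF446 also carries a SCAN domain, a dimerisation domain found in 3 members.

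**Figure D3:**
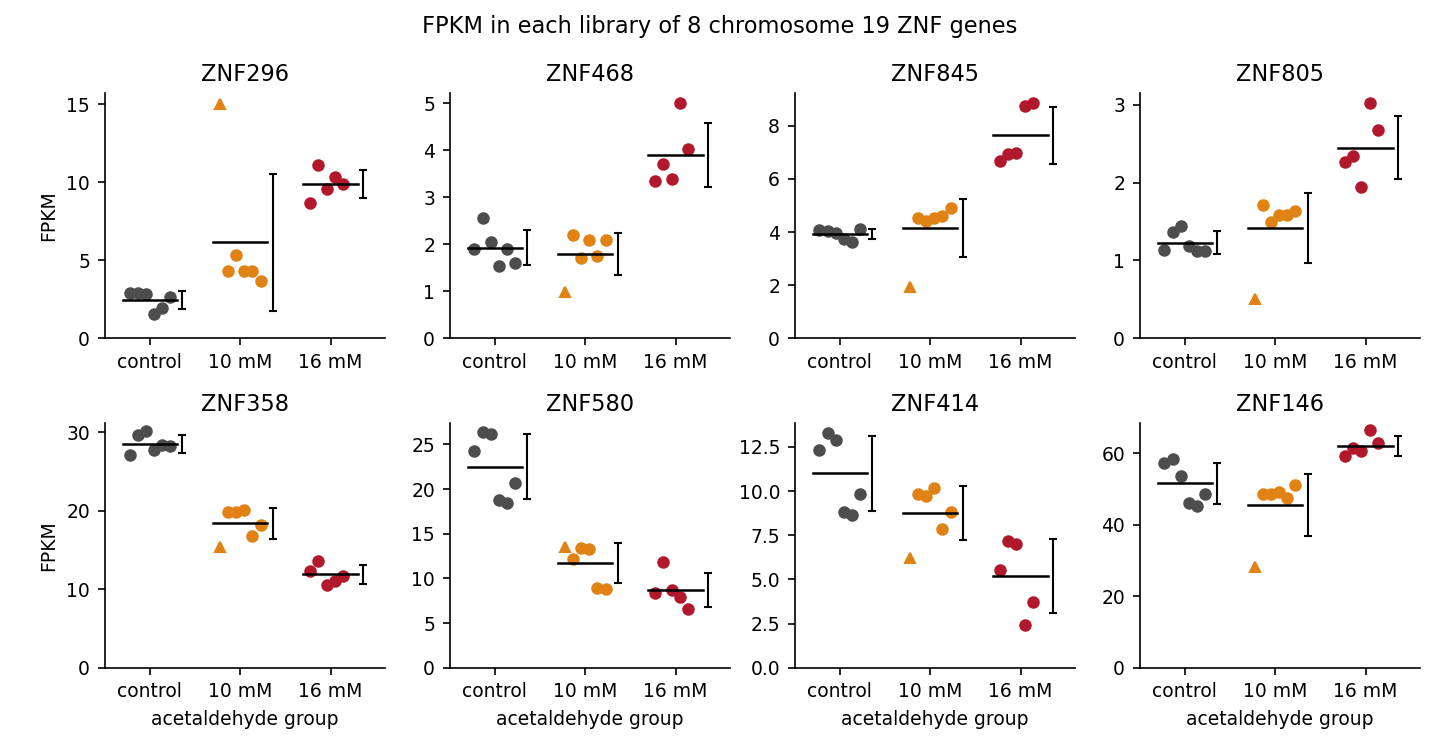
FPKM (y axis, from 0) in each library of 8 members by acetaldehyde group (x axis). Points are libraries, the triangle is 10 mM library 1, horizontal lines are means and bars are the SD (n = 6, 6 and 5). ZNF296 stands at 15.0 FPKM in 10 mM library 1 and between 3.65 and 5.34 FPKM in the other 10 mM libraries, while ZNF358 falls at each dose.

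Promoter sequences of the members are described next. RefSeq (GRCh38.p14) held the 250 bases before a transcription start for 176 of 196 members, 219 windows in all since some genes have several starts. The letters CCAAT on either strand, the core of the box bound by the factor NF-Y, were found in 45.7% of member windows and in 32.9% of 15166 windows of tested genes. The letters CCGGAAG on either strand, an ETS factor motif, were found in 27.4% of member windows and in 14.0% of windows of tested genes. By response, CCAAT was in 48.6% of 70 windows of members that rose, 38.5% of 13 windows of members that fell and 44.9% of 136 windows of members not called. For CCGGAAG these shares were 21.4%, 30.8% and 30.1%. These motifs were searched with 4 others (GGGCGGG, TGACGTCA, GAANNTTC and TGANTCA) and were picked after seeing their shares. A match is a description and not a binding site. Median GC content was 59.6% in member windows and 64.4% in windows of tested genes.

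The windows below are those of 3 members that rose and 2 that fell at 16 mM, each from a gene with 1 start in RefSeq, 5′ to 3′ on the gene's strand. Capitals mark CCAAT or CCGGAAG on either strand. The windows of ZNF805 (chr19:57240382-57240631, plus strand), ZNF845 (chr19:53333499-53333748, plus strand) and ZNF136 (chr19:12162846-12163095, plus strand) hold 1, 1 and 2 CCAAT matches, and ZNF805 also holds 1 CCGGAAG match. The windows of ZNF358 (chr19:7515853-7516102, plus strand) and ZNF414 (chr19:8514168-8514417, minus strand) hold neither. These windows do not stand for their groups, since 5 of the 13 windows of members that fell hold CCAAT and 4 hold CCGGAAG. The ZNF358 window lies inside the deposited span of the gene, because RefSeq's start lies downstream of the deposited one.
ZNF805: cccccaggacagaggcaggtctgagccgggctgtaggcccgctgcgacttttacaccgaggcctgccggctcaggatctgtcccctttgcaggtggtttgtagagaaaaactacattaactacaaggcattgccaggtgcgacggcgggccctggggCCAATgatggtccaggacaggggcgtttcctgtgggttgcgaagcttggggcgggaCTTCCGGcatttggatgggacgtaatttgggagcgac
ZNF845: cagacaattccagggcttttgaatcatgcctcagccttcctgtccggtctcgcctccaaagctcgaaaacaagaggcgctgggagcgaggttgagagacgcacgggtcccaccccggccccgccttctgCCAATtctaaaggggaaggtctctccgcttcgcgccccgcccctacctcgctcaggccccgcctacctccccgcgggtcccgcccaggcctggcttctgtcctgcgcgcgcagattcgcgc
ZNF136: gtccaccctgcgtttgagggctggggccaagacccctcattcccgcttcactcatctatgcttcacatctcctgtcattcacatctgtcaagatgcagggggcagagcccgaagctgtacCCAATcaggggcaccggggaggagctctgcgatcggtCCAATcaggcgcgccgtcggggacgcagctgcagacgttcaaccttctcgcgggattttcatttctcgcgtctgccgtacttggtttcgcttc
ZNF358: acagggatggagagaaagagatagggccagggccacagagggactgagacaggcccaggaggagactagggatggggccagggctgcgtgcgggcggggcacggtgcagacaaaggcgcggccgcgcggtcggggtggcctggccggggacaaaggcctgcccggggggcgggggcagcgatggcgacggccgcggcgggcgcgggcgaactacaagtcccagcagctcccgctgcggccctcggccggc
ZNF414: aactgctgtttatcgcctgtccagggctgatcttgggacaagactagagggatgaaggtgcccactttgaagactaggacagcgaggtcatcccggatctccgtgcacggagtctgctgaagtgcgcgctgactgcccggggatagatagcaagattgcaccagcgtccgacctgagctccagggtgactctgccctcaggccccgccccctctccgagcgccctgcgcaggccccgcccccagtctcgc

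By chromosome band the median log2 change was highest in 19p13.2, at 0.46 with and without 10 mM library 1. Of 35 members there, 20 rose and 3 fell at 16 mM (57.1% and 8.57%, against 17.3% and 18.1% of all genes). Without that library 24 rose and 3 fell (68.6% and 8.57%, against 33.7% and 32.2%). Beside ZNF121, the largest rises there, picked by size after the values were seen, were ZNF441, ZNF709, ZNF823, ZNF442, ZNF440, ZNF136, ZNF699 and ZNF799. Their log2 changes were 0.96, 0.93, 0.92, 0.92, 0.91, 0.91, 0.86 and 0.81. ZNF709 lay at the threshold, and its call was lost in 16 of the 17 fits that left out a library. ZNF442 ran from 1.74 to 3.68 FPKM in control (median 2.46) and from 3.79 to 4.97 FPKM at 16 mM (median 4.67). ZNF136 ran from 3.51 to 5.21 FPKM (median 4.23) and held 8.53, 7.66, 8.05, 7.59 and 7.71 FPKM. The groups did not overlap for either gene, and control libraries 4 to 6 were the lowest for both.

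In 19p12, a cluster best known for ZNF91, a repressor of SVA transposable elements, edgeR called 0 of 14 members at 16 mM in the fit of all 17 libraries. At an unadjusted p under 0.05 edgeR gave 1, and the DESeq2 Wald test called 0. Of all genes, 17.3% were called higher in the edgeR fit of all 17 libraries. Without 10 mM library 1, 10 of the 14 rose (71.4%, against 33.7% of all genes). The median was 0.37 in both fits, while the median SE of these genes was 0.25 with the library and 0.09 without it. ZNF91 ran from 2.44 to 2.96 FPKM in control (median 2.83) and held 4.19, 4.65, 4.42, 3.43 and 3.14 FPKM at 16 mM, with no overlap. In 10 mM library 1 it stood at 0.19 FPKM. Its log2 change at 16 mM was 0.61 ± 0.31 with that library (edgeR adjusted p = 0.134) and 0.62 ± 0.10 without it (edgeR adjusted p = 2.53e-05). ZNF85 of the same cluster changed by 0.23 ± 0.24 (adjusted p = 0.486) and by 0.24 ± 0.12 (adjusted p = 0.0997).

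The other bands gave smaller medians. Of all genes, 17.3% rose and 18.1% fell with all 17 libraries, and 33.7% and 32.2% without 10 mM library 1. In 19q13.41, 7 of 17 members rose (41.2%), with a median of 0.29, and without 10 mM library 1, 11 rose and 2 fell (64.7% and 11.8%). In 19q13.43, 14 of 45 rose and 3 fell (31.1% and 6.67%), also with a median of 0.29. Without that library 26 rose and 4 fell (57.8% and 8.89%). In 19q13.12, 3 of 24 rose (12.5%, under the share of all genes), with a median of 0.27. This became 13 of 24 (54.2%) without it. In 19q13.31, 7 of 23 rose and 3 fell (30.4% and 13.0%), with a median of 0.26, and 12 rose and 3 fell without it (52.2% and 13.0%). In 19q13.42, 5 of 15 rose and 2 fell (33.3% and 13.3%), with a median of -0.01, and its falls were ZNF580 and ZNF524.

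**Figure D4:**
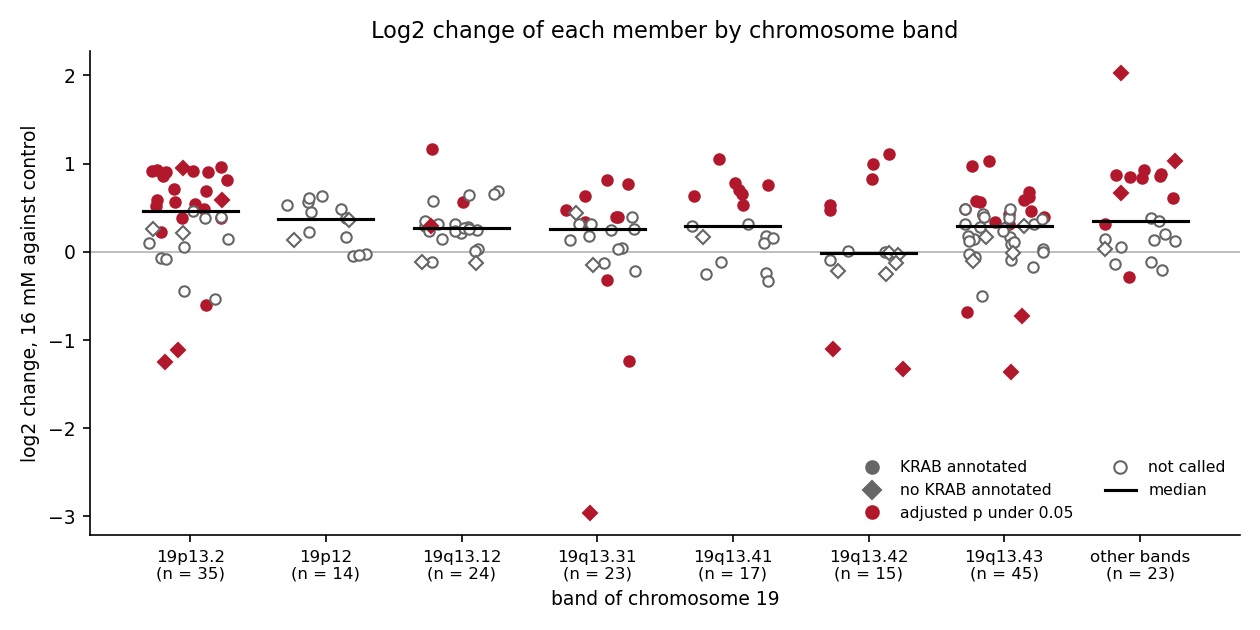
Log2 change at 16 mM against control (y axis) of each of the 196 members by band of chromosome 19 (x axis, n in brackets). Circles carry a KRAB domain, diamonds do not, red symbols passed an adjusted p under 0.05 and black lines are medians. The median is highest in 19p13.2 at 0.46 and lowest in 19q13.42 at -0.01.

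Other members with known roles gave mixed values. ZNF224, a repressor of the aldolase A gene, ran from 9.85 to 12.1 FPKM in control (median 11.5) and held 14.8, 14.8, 14.9, 15.3 and 15.1 FPKM at 16 mM. It rose by 0.40 ± 0.14 on the log2 scale (edgeR adjusted p = 0.0373), a call lost in 6 of the 17 such fits (without control library 1, 2 or 3, or 16 mM library 3, 4 or 5). ZNF274, which brings SETDB1 to zinc finger gene clusters, held 19.4, 19.7 and 23.0 FPKM in control libraries 1 to 3 and 12.8, 11.6 and 13.7 FPKM in libraries 4 to 6. At 16 mM it held 23.9, 25.5, 24.6, 18.4 and 18.6 FPKM, so the groups overlapped overall but not within either set. Its log2 change was 0.43 ± 0.19 (edgeR adjusted p = 0.0978) and, without 10 mM library 1, 0.43 ± 0.13 (adjusted p = 0.00745).

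ZNF350, a repressor that binds BRCA1, changed by 0.29 ± 0.15 (edgeR adjusted p = 0.137) and, without 10 mM library 1, by 0.30 ± 0.08 (adjusted p = 0.00368). ZNF382 changed by 0.31 ± 0.23 (adjusted p = 0.316) and by 0.32 ± 0.10 (adjusted p = 0.00992). ZNF260, ZNF428, ZNF444 and ZNF581, none with a KRAB domain, had log2 changes of -0.12, -0.15, -0.10 and -0.25 and did not pass the test at 16 mM in either fit.

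At 10 mM the members showed little shift against the same controls. In the fit of all 17 libraries 5 members rose and 16 fell, where 9.41% of all genes were called higher and 9.3% lower, and the median log2 change was -0.06. Without 10 mM library 1, 29 rose and 28 fell, where 22.4% and 22.8% of all genes were called, and the median was -0.01. The members' shares were then 14.8% and 14.3%, both under the shares of all genes. For members with a KRAB domain the median was 0.01 without that library, and for those without it -0.10. Within set A 40 rose and 49 fell (31.7% and 32.0% of all genes), and within set B 32 rose and 34 fell (30.5% and 31.1%). Both dose comparisons share the control libraries.

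The 5 rises at 10 mM were ZNF296, ZNF574, ZNF823, ZNF57 and ZNF14. ZNF574 held 12.2, 11.9, 12.8, 13.2, 11.7 and 12.3 FPKM in the 6 libraries. In FPKM, which does not carry the normalization factor of library 1, all lay above the controls and below the 16 mM libraries. Its log2 change was 0.82 ± 0.15 (edgeR adjusted p = 0.00153) and, without 10 mM library 1, 0.64 ± 0.08 (edgeR adjusted p = 9.31e-06). ZNF296 changed by 1.76 ± 0.46 (adjusted p = 0.0134) with 10 mM library 1 at 15.0 FPKM, and by 0.84 ± 0.14 (adjusted p = 0.000189) without that library. ZNF823, ZNF57 and ZNF14, all with KRAB domains, changed by 0.50, 0.48 and 0.41, and by 0.53, 0.42 and 0.46 without 10 mM library 1.

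The falls at 10 mM were led by ZNF575 (log2 change -1.5, at under 1 FPKM), followed by ZNF233, ZNF580 and ZNF524, all of which also fell at 16 mM. ZNF580 held 13.5, 12.2, 13.4, 13.3, 8.91 and 8.77 FPKM. All lay below the controls in FPKM, which does not carry the normalization factor of library 1. The log2 change of ZNF580 was -0.72 ± 0.21 (edgeR adjusted p = 0.0228) and, without library 1, -0.97 ± 0.13. ZNF358 held 15.4, 19.8, 19.9, 20.1, 16.8 and 18.2 FPKM, in FPKM between the control and the 16 mM libraries. Its log2 change was -0.47 ± 0.11 (edgeR adjusted p = 0.00708) and, without library 1, -0.59 ± 0.06 (edgeR adjusted p = 9.84e-07). ZNF524 and ZNF446 changed by -0.69 and -0.54, and by -0.81 and -0.65 without library 1.

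Directly between the doses, 66 members were higher at 16 mM than at 10 mM and 3 were lower, where 6.69% of all genes were called higher and 7.46% lower. The median was 0.38, against -0.06 over all genes. Without 10 mM library 1, 121 were higher and 7 lower, where 23.2% and 20.9% of genes were called, and the median was 0.33. Within set A 120 were higher and 9 lower (26.5% and 27.9% of all genes), and within set B 121 were higher and 10 lower (32.3% and 32.2%), with medians of 0.26 and 0.38. The 16 mM libraries are shared with the comparison to control. ZNF525, ZNF468, ZNF28, ZNF442 and ZNF845 led the rises between the doses in the fit of all 17 libraries, at 1.16, 1.02, 0.95, 0.87 and 0.81. ZNF296, at 15.0 FPKM in 10 mM library 1, differed between the doses by 0.27 ± 0.45 in that fit (edgeR adjusted p = 0.706). Without that library it had the largest rise among called members that averaged at least 1 FPKM in the higher group, at 1.2 ± 0.14 (edgeR adjusted p = 1.68e-05). The 3 lower members in the fit of all 17 libraries were ZNF414 (-0.93 ± 0.20), ZNF358 (-0.78 ± 0.12) and ZNF428 (-0.67 ± 0.19). Without 10 mM library 1 they changed by -0.83 ± 0.19, -0.66 ± 0.06 and -0.40 ± 0.08. ZNF428 held 45.5 to 57.1 FPKM at 10 mM (median 50.9) and 42.4, 42.3, 36.4, 29.8 and 34.6 FPKM at 16 mM.

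The partners of KRAB proteins were read from a list of 32 genes of the TRIM28 pathway, all of which were tested. At 16 mM 5 rose and 2 fell, with a median log2 change of 0.08. Without 10 mM library 1, 10 rose and 7 fell (31.2% and 21.9%, against 33.7% and 32.2% of all genes). The shares in the fit of all 17 libraries, 15.6% and 6.25%, lie below those of all genes, and this did not hold in every fit. Within set A 18 rose and 6 fell (56.2% and 18.8%, against 35.5% and 36.4% of all genes), with a median of 0.18. Within set B 12 rose and 14 fell (37.5% and 43.8%, against 38.6% and 39.5%), with a median of -0.07. TRIM28 itself was the most abundant of those that rose. It ran from 132 to 147 FPKM in control (median 137) and from 174 to 202 FPKM at 10 mM (median 184). At 16 mM it held 212, 224, 216, 236 and 241 FPKM. The 3 groups did not overlap in FPKM, which does not carry the normalization factor of 10 mM library 1. Its log2 change was 0.64 ± 0.17 at 10 mM (edgeR adjusted p = 0.0165) and 0.74 ± 0.18 at 16 mM (edgeR adjusted p = 0.00388). Without 10 mM library 1 these were 0.42 ± 0.08 (edgeR adjusted p = 0.000425) and 0.75 ± 0.08 (edgeR adjusted p = 3.66e-07). Between the doses TRIM28 differed by 0.11 ± 0.18 with that library (edgeR adjusted p = 0.714) and by 0.33 ± 0.08 without it (edgeR adjusted p = 0.00445).

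MORC3 and MORC2, ATPases of which MORC2 acts with the HUSH silencing complex, rose by 0.77 ± 0.15 and 0.58 ± 0.12 at 16 mM. The TRIM28 relative TRIM24 rose by 0.47 ± 0.10, and SUV39H1, a histone H3 lysine methyltransferase, by 0.50 ± 0.13. The falls were MTA3 (-0.53 ± 0.09) and MBD3 (-0.42 ± 0.10), both subunits of the NuRD remodelling complex. SETDB1 held 10.9 to 13.9 FPKM in control and 17.5, 15.6, 14.5, 11.1 and 12.2 FPKM at 16 mM, with a log2 change of 0.10 ± 0.13 (edgeR adjusted p = 0.588). Its 16 mM libraries of set A were above all controls, and those of set B were not. At 10 mM the called genes were TRIM28 and HDAC1, the latter at 0.39 ± 0.09. Both rose, and they made up 6.25% of the list, where 9.41% of all genes were called higher. Without 10 mM library 1, 11 pathway genes rose and 2 fell at 10 mM, where 22.4% and 22.8% of all genes were called.

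**Figure D5:**
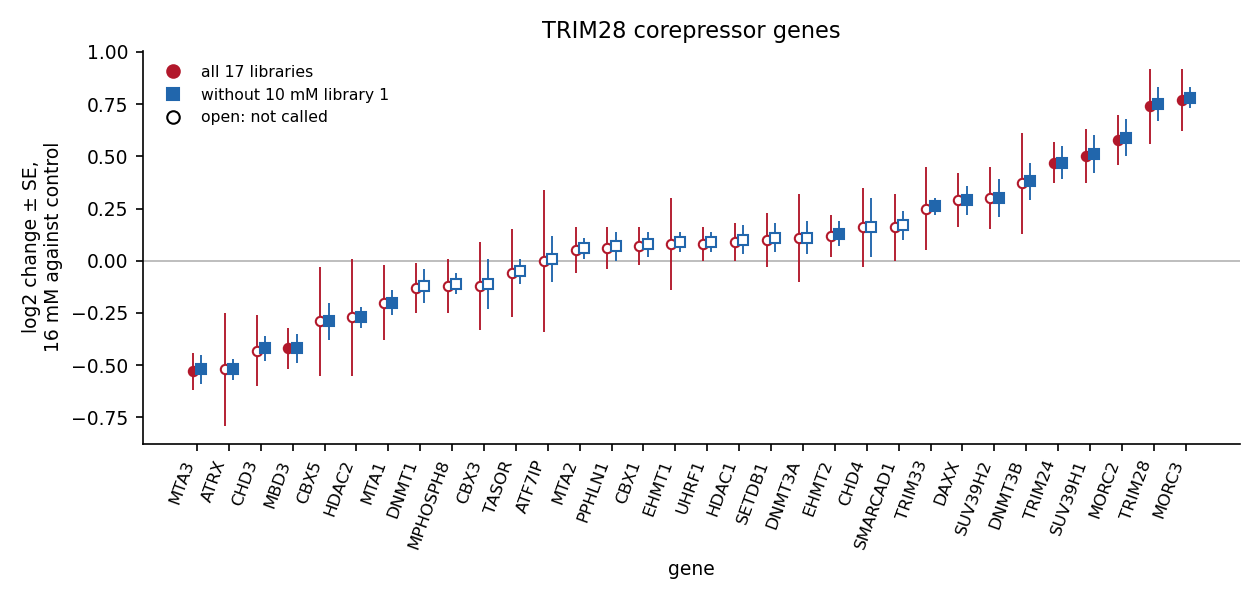
Log2 change ± SE (y axis) at 16 mM against control of 32 TRIM28 pathway genes (x axis), in the fit of all 17 libraries (red circles) and without 10 mM library 1 (blue squares). Filled symbols passed an adjusted p under 0.05. TRIM28 and MORC3 stand highest, at 0.74 and 0.77 in the fit of all 17 libraries, and MTA3 lowest at -0.53.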

How the data were processed

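Messenger RNA was measured in 17 libraries. The submitters' processing notes list HISAT, Bowtie2 (2.3.4.3), RSEM (1.3.1), DESeq2 (1.4.5) and build GRCh38.p13, without saying which step used which. Per the file headers, the authors' deposited table has read counts per gene, which hold fractions and were treated as RSEM estimated counts, and FPKM values. It also has the authors' log2 fold changes and q-values (adjusted p-values) per comparison. Nothing used here says whether strand was counted. KRAB and SCAN annotation came from its Pfam column. Every per-sample column matched a sample.

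Estimated counts, rounded, went into 1 edgeR 4.0.16 quasi-likelihood fit of all 17 libraries (R 4.3.3, TMM factors, filterByExpr, 12564 genes, 14 residual degrees of freedom). Tests were two-sided, with Benjamini-Hochberg adjustment across all genes in the fit and calls at an adjusted p under 0.05. The SE is the absolute log2 change over the square root of F. Members, gene lists and tests were chosen with earlier results of these data known. Named genes were, per comparison, the 8 largest rises and 8 largest falls among called members that averaged 1 FPKM in the higher group, in the fits with and without 10 mM library 1. To these were added the 5 highest in control, the 3 on either side of the threshold, a preset list and the TRIM28 pathway, of which the text names part. ZNF226, ZNF302, ZNF526, ZNF544, ZNF575, ZNF625 and some 19p13.2 members were named after their values were seen. Alternatives were DESeq2 size factors, no count filter, DESeq2 1.42.0, limma 3.58.1 on log2(FPKM + 1) and log2(FPKM + 0.1), a replicate block, only the compared groups, single libraries left out and other membership thresholds. The code was tested on simulated data. Replicate numbers did not pair the samples.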

Additional observations from a re-analysis of the deposited data

Results flagged for a closer look

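Of 165 sets of libraries checked for a library far from the others in its group (named genes and the members' share of counts), 27 held one, and chance gives about 1 in 20. In all 27 it was library 1 of the 10 mM group, the lowest in 26 and the highest in 1. The values checked did not carry the normalization factor, which was 0.559 for that library. A library lowest in FPKM therefore need not be lowest on the scale of the fits.

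The members' share of counts was 0.148% there. ZNF296 was the highest, at 15.0 FPKM. The lowest values were 28.1 FPKM for ZNF146, 6.98 for ZNF302, 4.09 for ZNF224, 3.94 for ZNF121, 3.90 for ZNF274, 2.51 for ZNF260, 2.31 for ZNF526, 1.93 for ZNF845, 1.82 for ZNF799 and 1.31 for ZNF440. ZNF497 stood at 0.94 FPKM, ZNF805 at 0.51, ZNF699 at 0.45, ZNF85 at 0.24, ZNF382 at 0.17, ZNF850 at 0.17, ZNF233 at 0.15 and ZNF709 at 0.12. Among TRIM28 pathway genes HDAC1 stood at 84.2 FPKM, MTA3 at 14.6, SUV39H1 at 11.3, MORC2 at 6.24, SETDB1 at 4.13, MORC3 at 3.53 and TRIM24 at 3.05.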

How the results depend on the processing

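Calls depended on 10 mM library 1 and the spread it adds, while the order of more members higher than lower at 16 mM held in every fit run. With the replicate number as a block, a number that does not pair the libraries (correlations of same-numbered libraries went down to -0.39), 60 members were higher and 11 lower at 16 mM, 5 and 12 at 10 mM, and 42 and 3 between the doses. With the block and without 10 mM library 1, 112 members were higher at 16 mM, 26 and 31 were higher and lower at 10 mM, and 110 and 7 between the doses, with 17, 14 and 16 TRIM28 pathway genes called. With only the compared groups, 109 were higher at 16 mM, 8 lower at 10 mM, and 22 and 1 higher and lower between the doses, with 16, 1 and 2 pathway genes. With a library set term and without 10 mM library 1, the counts were 120 and 19 at 16 mM, 36 and 43 at 10 mM, and 133 and 9 between the doses. Of all genes, 37.5% and 36.5%, 28.6% and 28.9%, and 29.5% and 28.1% were then called higher and lower. The pathway genes called were 21, 16 and 21, split higher and lower into 12 and 9, 14 and 2, and 9 and 12. Within set A the members were 24 lower at 16 mM, 40 and 49 at 10 mM, and 120 and 9 between the doses. The pathway genes there were 24, 21 and 20, or 18 and 6, 15 and 6, and 10 and 10 higher and lower. Within set B the members were 113 and 23, 32 and 34, and 121 and 10. The pathway genes there were 26, 17 and 27, or 12 and 14, 13 and 4, and 9 and 18. Of all genes, 35.5% and 36.4%, 31.7% and 32.0%, and 26.5% and 27.9% were called in set A. In set B these were 38.6% and 39.5%, 30.5% and 31.1%, and 32.3% and 32.2%. The DESeq2 Wald test gave 8 higher at 10 mM and 5 lower between the doses, with 4 pathway genes at 10 mM. On log2(FPKM + 1) limma gave 2 and 9 at 10 mM and 42 higher between the doses, and on log2(FPKM + 0.1) it gave 38 higher at 16 mM, 2 and 7 at 10 mM and 32 higher between the doses. Each gave 1 pathway gene at 10 mM. Pathway counts not split above pool higher and lower genes. The shares of all genes in the fits with a block, with only the compared groups, with the Wald test and with limma are not given here. The cause of these differences was not tested.

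Leaving out each library in turn gave 56 to 115 higher and 10 to 16 lower members at 16 mM, 4 to 29 and 8 to 28 at 10 mM, and 38 to 121 and 2 to 7 between the doses. Pathway genes called ranged from 7 to 17, 2 to 13 and 2 to 16. The upper ends for members and pathway genes came without 10 mM library 1. Of all genes, 33.7% and 32.2%, 22.4% and 22.8%, and 23.2% and 20.9% were then called higher and lower. With all 17 libraries these were 17.3% and 18.1%, 9.41% and 9.3%, and 6.69% and 7.46%. Shares of all genes in the other fits that left out a library are not given here. The ZNF226 call at 16 mM was lost without control library 2, 3 or 5 or 16 mM library 4 or 5, and that of ZNF302 without control library 2 or 3 or 16 mM library 2, 4 or 5. ZNF709 kept its call only without 10 mM library 1. At 10 mM the calls of ZNF14 and ZNF846 were lost without control library 1 and 2 respectively, ZNF233 without control library 1, 2 or 3, and ZNF580 without control library 3 or 10 mM library 5 or 6. Between the doses ZNF428 was lost without 16 mM library 3, 4 or 5. SETDB1 changed sign within set B at 16 mM (-0.09). With members of a mean control count of at least 100, 60 were higher and 8 lower at 16 mM, and with members averaging at least 10 over all 17 libraries, 67 and 11. Members near the count threshold rest on few counts, which limits their precision.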
